A study of Mus musculus with 26 samples.

Results

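Interferon signalling in the liver was followed through 9 genes: the receptor chains Ifnar1, Ifnar2 and Ifngr1, the signal transducer Stat2, the interferon regulatory factors Irf1, Irf3, Irf7 and Irf9, and the inhibitor Socs1. They were taken by symbol from a table of 55401 genes, and all 9 were found and passed the filter on low counts. Liver RNA had been sequenced from male C57BL/6 mice started on a high-fat diet at 4 weeks of age and kept on it for 18 weeks (high in cholesterol too, by the design text but not by the growth text). Mice that had only the diet (untreated HFD, 9 libraries) were set against mice on the same diet that received exosomes from UCMSC cells through the tail vein every 72 hours for 8 weeks (UCMSC-Exos, 8 libraries of 9 planned mice). Exosomes are vesicles, bounded by a membrane, that cells release. The labels list no sham injection for untreated HFD, so the exosomes and the injections, or a cage or cohort common to a group, cannot be told apart. A group called LSCR, with 9 of the 26 samples, was not analysed here. No gene was altered in any group, as far as the labels say.

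Type I interferons bind a receptor made of the chains IFNAR1 and IFNAR2. The Janus kinases on these chains then phosphorylate STAT2, which joins IRF9 in the complex ISGF3, and ISGF3 binds interferon-stimulated response elements (ISRE) in promoters. Interferon-gamma binds a separate receptor with the chain IFNGR1, acts at gamma-activated sites (GAS) in promoters and induces IRF1. IRF3 and IRF7 are switched on by sensors of foreign or misplaced nucleic acid and drive transcription of the interferons. IRF3 is present in most cells before any stimulus, whereas Irf7 is itself an interferon-stimulated gene. SOCS1 is induced by interferons and blocks the Janus kinases. In the liver these genes are active in hepatocytes, in resident macrophages (Kupffer cells) and in other cells.

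The promoters of Stat2 and Socs1 are printed because they held the core letters of an ISRE, that of Irf1 because it held the letters of a GAS, and that of Irf7 because the most abundant of the 9 transcripts had neither. All are from RefSeq on GRCm38.p6, 5′ to 3′ on the strand of the gene. Those of Stat2, Socs1 and Irf1 end at the base before the RefSeq start, and that of Irf7 ends earlier, where the gene as GENCODE annotates it begins. Capitals mark the matched letters. The windows are chr10:128270248-128270497 on the plus strand for Stat2, chr16:10785537-10785786 on the minus strand for Socs1, chr11:53769764-53770013 on the plus strand for Irf1 and chr7:141266482-141266674 on the minus strand for Irf7, where 193 of 250 bases are shown.
Stat2: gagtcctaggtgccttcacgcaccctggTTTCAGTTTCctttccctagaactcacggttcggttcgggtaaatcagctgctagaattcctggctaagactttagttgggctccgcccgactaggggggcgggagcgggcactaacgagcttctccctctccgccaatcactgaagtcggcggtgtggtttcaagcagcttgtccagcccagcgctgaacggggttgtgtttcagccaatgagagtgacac
Socs1: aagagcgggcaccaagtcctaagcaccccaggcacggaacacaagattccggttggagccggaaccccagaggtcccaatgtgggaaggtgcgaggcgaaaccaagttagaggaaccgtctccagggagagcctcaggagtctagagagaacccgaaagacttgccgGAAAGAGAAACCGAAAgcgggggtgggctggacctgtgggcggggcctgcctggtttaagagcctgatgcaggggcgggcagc
Irf1: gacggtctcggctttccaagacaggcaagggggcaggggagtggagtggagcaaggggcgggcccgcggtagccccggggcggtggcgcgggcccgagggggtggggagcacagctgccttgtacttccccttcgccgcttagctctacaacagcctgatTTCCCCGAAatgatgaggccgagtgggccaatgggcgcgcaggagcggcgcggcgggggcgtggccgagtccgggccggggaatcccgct
Irf7: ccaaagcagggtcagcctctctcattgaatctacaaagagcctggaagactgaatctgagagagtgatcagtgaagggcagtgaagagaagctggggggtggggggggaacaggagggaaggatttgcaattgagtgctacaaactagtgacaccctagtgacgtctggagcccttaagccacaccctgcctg

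The ISRE core was searched as GAAA, any 2 bases and GAAA again, and the GAS as TTCNNNGAA, on both strands, in all 250 bases before each RefSeq start, including bases not shown here. Of 32851 starts in the RefSeq table, 2.98% held the first and 7.02% the second. Stat2 held 1 ISRE core on the strand opposite the gene, from base -222 to -213. Socs1 held 2 that overlap by 4 bases, from -83 to -74 and from -77 to -68. Irf1 held 1 GAS, from -90 to -82, and Ifnar2 held 1, from -214 to -206. These letters were not found in the windows of Ifnar1, Ifngr1, Irf3 or Irf7, nor in those before the 2 RefSeq starts of Irf9, which lie inside the gene as GENCODE annotates it. A match is a match of letters and not a measured binding site.

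In UCMSC-Exos livers the transcripts of Irf7, Stat2 and Socs1 were lower than in untreated livers, by 46.6%, 27.7% and 51.6%. Those of both chains of the type I receptor, of Ifngr1, Irf1, Irf3 and Irf9 did not pass the test. So 3 of the 9 genes were lower, 0 were higher and 6 did not pass, by edgeR's quasi-likelihood test at an adjusted p of 0.05 over 16238 genes. Over all genes tested 20.2% passed, 10.4% lower and 9.73% higher. The median log2 fold change was -0.18 over the 9 genes and -0.02 over all genes. In none of the 9 did every UCMSC-Exos library lie on one side of every untreated one, which was the case for 0.807% of all genes downward and 0.493% upward. The labels plan 9 mice a group but do not tie each library to a mouse of its own, so p-values measure the spread between these libraries. In bulk liver, fewer cells of a type and less RNA per cell cannot be told apart.

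Libraries held 32.9 to 36.1 M counted reads. Levels are given in CPM, a gene's share of the reads counted in a library after TMM scaling. The TMM factors were 0.973 to 1.119 in untreated libraries and 0.868 to 0.945 in UCMSC-Exos libraries, except 1.181 in UCMSC-Exos 9. Before scaling, mean counts in untreated and UCMSC-Exos livers were 1940 and 1762 reads for Ifnar1 and 1700 and 1322 for Ifnar2. They were 1708 and 1510 for Ifngr1, 1806 and 1255 for Irf1, and 2600 and 2051 for Irf9. The size of the changes in CPM of these genes thus depends on the scaling. Hepatocyte markers marked every library as liver, with a summed level of 32700 to 70900 CPM. A few libraries stood apart: untreated HFD 3 held 7640 CPM of exocrine pancreas markers against at most 0.62 CPM in UCMSC-Exos libraries, and the lowest sum of mitochondrially encoded transcripts (2470 CPM), untreated HFD 9 had the highest such sum (53900 CPM), and UCMSC-Exos 9 had the lowest hepatocyte sum of its group (38500 CPM). UCMSC-Exos 9 also had the highest sums of its group for cholangiocyte (577 CPM) and stellate cell markers (1750 CPM). Values without these 3 libraries are given beside the fold changes of the 9 genes, an alternative chosen after the data were seen. In that fit 41.9% of all genes tested passed, and 35.7% did without UCMSC-Exos 9 alone, against 20.2% with all libraries.

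**Figure D1:**
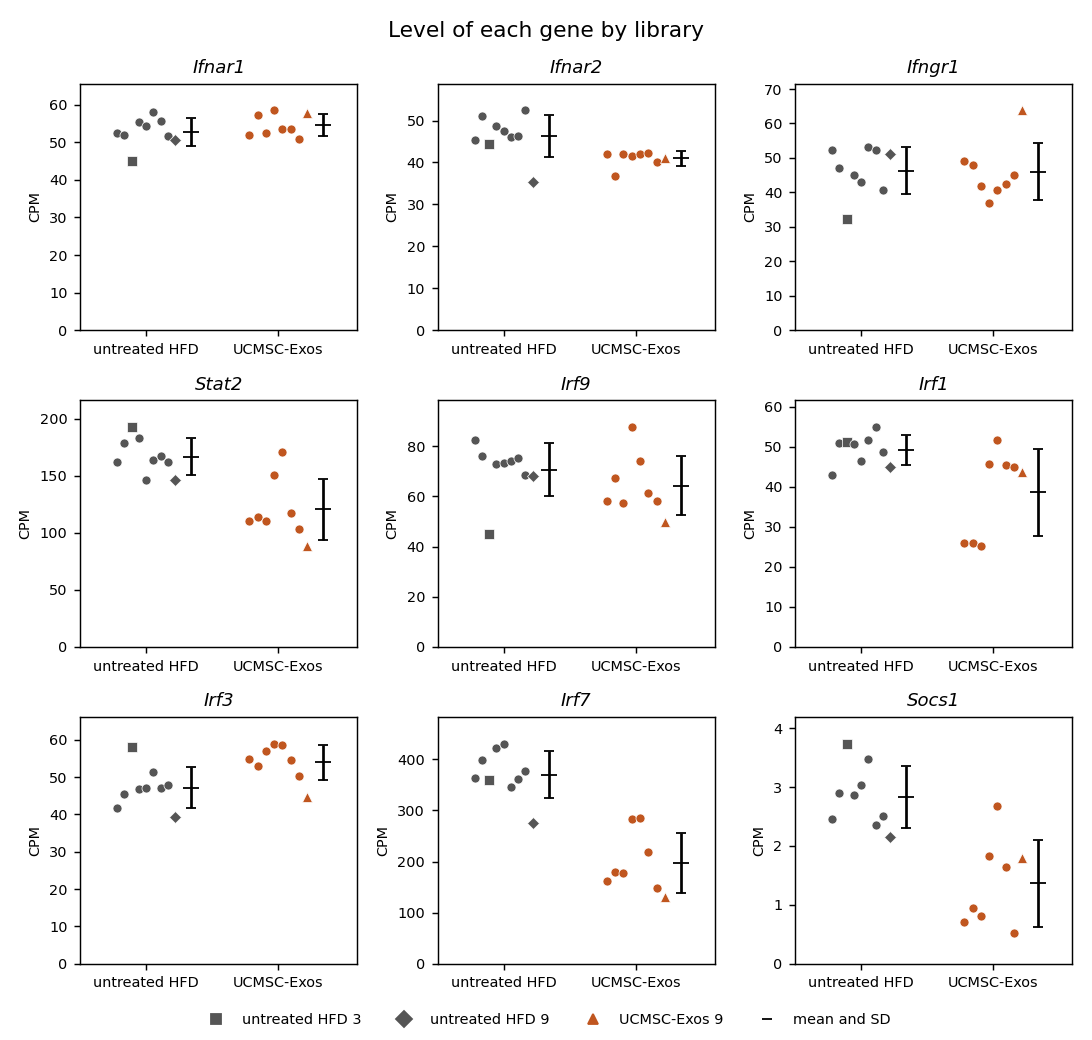
Level of each of the 9 genes in CPM (vertical axis, from 0) in every library of untreated HFD (grey) and UCMSC-Exos (orange), with the mean and SD beside each group and separate marks for untreated HFD 3, untreated HFD 9 and UCMSC-Exos 9. Irf7, Stat2 and Socs1 sit lower in most UCMSC-Exos libraries, and Irf1 splits within that group into 3 libraries near 26 CPM and 5 at 43.6 to 51.8 CPM.

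Among the receptors, Ifnar1, on chromosome 16 from 91485238 to 91507441 (mm10, plus strand), encodes the signalling chain of the type I receptor that pairs with Tyk2. It had 45.1 CPM in its lowest untreated library, a median of 52.4 and a highest value of 58.1, against 51, 53.5 and 58.6 CPM in UCMSC-Exos. The ranges lay on top of each other. Its log2 fold change was 0.05 ± 0.05 (SE; edgeR adjusted p = 0.562), with a 95% interval of -0.07 to 0.16, so a change of the size seen for Stat2 lies outside that interval. Without the 3 libraries that stood apart it was -0.01 (edgeR adjusted p = 0.94). The intervals here are for 1 gene at a time and are not adjusted.

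Ifnar2, also on chromosome 16, from 91372783 to 91405589 (plus strand), encodes the chain that binds interferon most tightly. Its untreated libraries had 35.3 CPM at the lowest, 46.2 at the median and 52.5 at the highest, and its UCMSC-Exos libraries 36.8, 41.7 and 42.3. All 8 UCMSC-Exos libraries lay under the untreated median, but untreated HFD 9 was lower than any of them. The fitted log2 fold change was -0.18 ± 0.07 (SE; edgeR adjusted p = 0.0644; 95% interval -0.32 to -0.04) and did not pass. Without untreated HFD 9 it was -0.22 (edgeR adjusted p = 0.00793), it also passed without untreated HFD 3 (edgeR adjusted p = 0.0486), and without the 3 libraries that stood apart -0.24 (edgeR adjusted p = 0.00097), so this call rests on which libraries are kept. An overlapping gene model, Gm21970, shares 9.46% of the exonic bases of Ifnar2 and had 0 CPM in both groups.

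Ifngr1, on chromosome 10 from 19591949 to 19610229 (plus strand), encodes the chain that binds interferon-gamma. Its level was 46.4 CPM ± 6.92 (SD, n = 9) in untreated livers, from 32.3 in untreated HFD 3 to 53.2, and 46 CPM ± 8.27 (SD, n = 8) in UCMSC-Exos, from 36.8 to 63.9 in UCMSC-Exos 9. Both extremes belonged to libraries that stood apart. Between the groups the log2 fold change was -0.01 ± 0.11 (SE; edgeR adjusted p = 0.953; 95% interval -0.24 to 0.22), and -0.14 without the 3 libraries that stood apart (edgeR adjusted p = 0.15). Where 10.4% of all genes tested were lower, 1 of 3 other receptor chains was lower and 0 were higher, with a median of -0.28. That one was Ifngr2, the partner chain of Ifngr1, which had 37.1 CPM ± 2.86 (SD, n = 9) and 30.6 CPM ± 3.81 (SD, n = 8), a log2 fold change of -0.28 ± 0.08 (SE; edgeR adjusted p = 0.0166). Without UCMSC-Exos 9, alone or with the other libraries that stood apart, all 3 chains were lower. In those fits calls rose over all genes too, to 35.7% and 41.9% of those tested, against 20.2% with all libraries.

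Within ISGF3, Stat2 and Irf9 moved unequally. Stat2, on chromosome 10 from 128270559 to 128292849 (plus strand), supplies the transactivation domain of the complex. Untreated libraries had 146 CPM at the lowest, 164 at the median and 193 at the highest. UCMSC-Exos libraries had 110, 114, 110, 151, 171, 117, 103 and 88.8 CPM in replicates 1, 2, 3, 5, 6, 7, 8 and 9. The 6 lowest lay under every untreated library, and only UCMSC-Exos 5 and 6 lay within the untreated range. The log2 fold change was -0.47 ± 0.11 (SE; edgeR adjusted p = 0.00703; 95% interval -0.7 to -0.24), and -0.41 without the 3 libraries that stood apart (edgeR adjusted p = 0.00381).

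Irf9, on chromosome 14 from 55603571 to 55610030 (plus strand), encodes the DNA-binding subunit of ISGF3. It ran from 45 CPM in untreated HFD 3 through a median of 73.5 to 82.4 in untreated livers, and from 50 through 59.9 to 87.8 CPM in UCMSC-Exos. The highest of all libraries was a UCMSC-Exos library and the lowest an untreated one. For Irf9 the log2 fold change was -0.14 ± 0.11 (SE; edgeR adjusted p = 0.407; 95% interval -0.38 to 0.11), and -0.17 without the 3 libraries that stood apart (edgeR adjusted p = 0.111). Exons of Irf9 share 2.28% of their bases with Rnf31, and reads were counted without strand.

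Of the 4 Janus kinases, 2 were lower and 0 higher, with a median of -0.12, beside 10.4% lower over all genes tested. Jak2, which serves the interferon-gamma receptor, had a log2 fold change of -0.27 ± 0.08 (SE; edgeR adjusted p = 0.0206), and Jak3, which serves cytokine receptors of lymphocytes, had one of -0.27 ± 0.07 (SE; edgeR adjusted p = 0.0156). Jak1 and Tyk2, the kinases of the type I receptor, had log2 fold changes of 0.08 and 0.02 and did not pass.

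Irf7 and Irf3, related factors that switch on interferon genes, had log2 fold changes of opposite sign. Irf7, on chromosome 7 from 141262706 to 141266481 (minus strand), had 363, 399, 359, 423, 431, 345, 361, 377 and 275 CPM in untreated replicates 1 to 9. In UCMSC-Exos replicates 1, 2, 3, 5, 6, 7, 8 and 9 it had 161, 179, 177, 283, 285, 218, 149 and 131 CPM. All 8 lay under the untreated median, and the groups overlapped only because untreated HFD 9, at 275 CPM, was under UCMSC-Exos 5 and 6. The log2 fold change was -0.9 ± 0.15 (SE; edgeR adjusted p = 0.000464; 95% interval -1.22 to -0.59), and it was also -0.9 without the 3 libraries that stood apart (edgeR adjusted p = 0.000124). Irf7 shares 1.19% of its exonic bases with Phrf1, which had 38.1 and 36.8 CPM in the groups.

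Irf3, on chromosome 7 from 44997648 to 45002848 (plus strand), had 39.3 CPM at the lowest, 47.1 at the median and 58.1 at the highest in untreated livers, and 44.8, 54.8 and 59 CPM in UCMSC-Exos. The untreated high was untreated HFD 3 and the UCMSC-Exos low was UCMSC-Exos 9, and 7 of 8 UCMSC-Exos libraries lay above the untreated median. Before scaling, its mean counts were 1731 reads in untreated livers and 1729 in UCMSC-Exos. The higher level in CPM thus rests largely on the library scaling, and scaling by total counts alone was not run. For Irf3 the log2 fold change was 0.19 ± 0.07 (SE; edgeR adjusted p = 0.0688; 95% interval 0.04 to 0.35) and did not pass. It passed without untreated HFD 3 (0.24; edgeR adjusted p = 0.016), without UCMSC-Exos 9 (0.23; edgeR adjusted p = 0.0175) and without all 3 libraries that stood apart (0.24; edgeR adjusted p = 0.00132). Bcl2l12, on the other strand, shares 2.56% of the exonic bases of Irf3 and had 3.36 and 3.44 CPM.

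Irf1, on chromosome 11 from 53770014 to 53778374 (plus strand), encodes a factor that interferon-gamma induces. Untreated libraries ran from 43 through a median of 50.8 to 55 CPM. UCMSC-Exos replicates 1, 2 and 3 had 26, 26 and 25.2 CPM, whereas replicates 5, 6, 7, 8 and 9 had 45.8, 51.8, 45.4, 44.9 and 43.6 CPM. The first 3 lay under every untreated library and the other 5 within the untreated range. The log2 fold change was -0.35 ± 0.14 (SE; edgeR adjusted p = 0.0784; 95% interval -0.64 to -0.05) and did not pass. Leaving out 1 library changed the call: without UCMSC-Exos 6 it was -0.42 (edgeR adjusted p = 0.0402) and without UCMSC-Exos 9 it was -0.38 (edgeR adjusted p = 0.0494). It did not pass in the other 15 such fits, nor without all 3 libraries that stood apart (-0.39; edgeR adjusted p = 0.0714). The antisense gene Gm17334 shares 20% of the exonic bases of Irf1 and had 1.58 and 1.51 CPM.

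Other IRF genes moved in both directions. Irf2, which competes with IRF1 for the same DNA sites, rose, with a log2 fold change of 0.42 ± 0.1 (SE; edgeR adjusted p = 0.00745). Irf8, a factor of macrophages, dendritic cells and B cells, fell, with a log2 fold change of -0.46 ± 0.12 (SE; edgeR adjusted p = 0.011).

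Socs1, on chromosome 16 from 10782240 to 10785536 (minus strand), was the least abundant of the 9 genes, with 77 to 139 reads per untreated library and 16 to 85 per UCMSC-Exos library. Untreated livers had 2.15 CPM at the lowest, 2.86 at the median and 3.74 at the highest. UCMSC-Exos replicates 1, 2, 3, 5, 6, 7, 8 and 9 had 0.707, 0.951, 0.802, 1.83, 2.68, 1.65, 0.515 and 1.79 CPM. All but UCMSC-Exos 6 lay under every untreated library. The log2 fold change was -1.05 ± 0.27 (SE; edgeR adjusted p = 0.0126; 95% interval -1.62 to -0.47), the widest interval of the 9 genes. It was -1.1 without the 3 libraries that stood apart (edgeR adjusted p = 0.00536), and -0.97 and no longer past the threshold with 3 surrogate variables in the model (edgeR adjusted p = 0.0844).

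Among 14 other negative regulators, 3 were lower and 1 was higher, with a median of -0.1. This stands beside 10.4% lower and 9.73% higher over all genes tested. Usp18, which removes ISG15 and blocks IFNAR2, fell: untreated livers had 57.7 CPM ± 12.4 (SD, n = 9) and UCMSC-Exos livers 34.6 CPM ± 9.92 (SD, n = 8), a log2 fold change of -0.74 ± 0.16 (SE; edgeR adjusted p = 0.00368). The phosphatase genes Ptpn6 and Ptpn1 fell, with log2 fold changes of -0.38 and -0.17 (edgeR adjusted p = 0.0157 and 0.0253), and Ptpn1 lost its call without UCMSC-Exos 3 (edgeR adjusted p = 0.0596). Pias2, an inhibitor of activated STATs, had a log2 fold change of 0.21 (edgeR adjusted p = 0.0499) and passed in only 3 of the 17 fits that left out 1 library. The relatives of Socs1 did not pass: Socs2 had a log2 fold change of -0.33, Socs3 of 0.24 and Cish of -0.2.

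**Figure D2:**
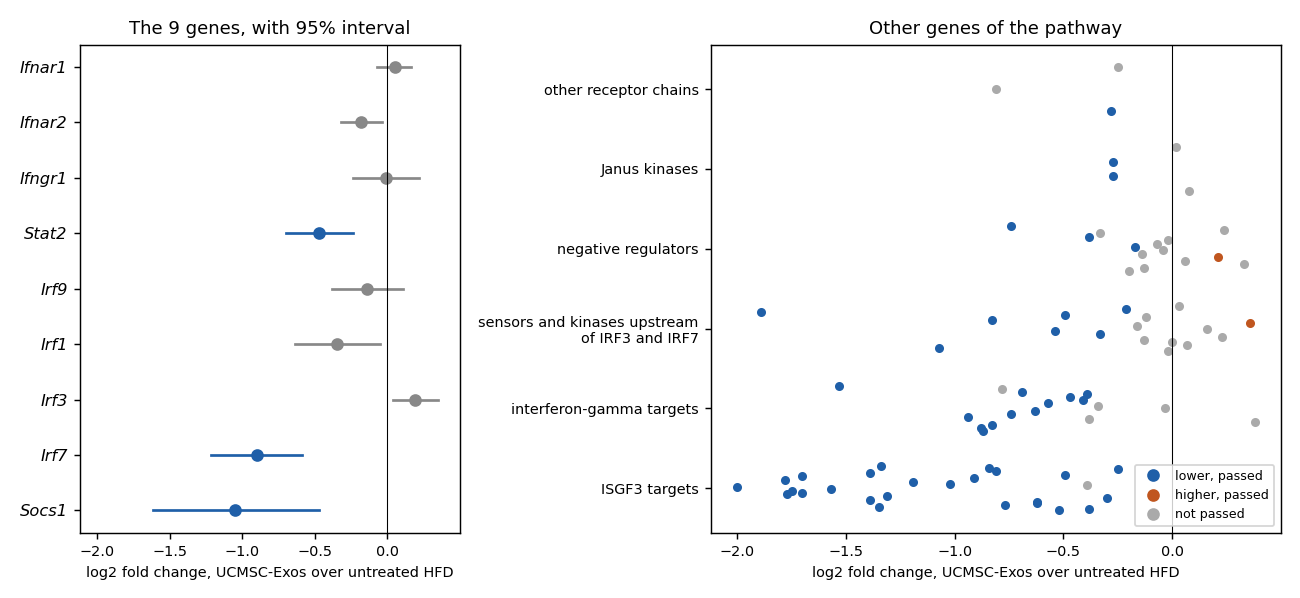
Log2 fold change of UCMSC-Exos over untreated HFD (horizontal axes) for the 9 genes with their 95% intervals (left) and for the other genes of 6 pathway lists, 1 point a gene (right), with genes that passed the test lower in blue, higher in orange and the rest in grey. Irf7, Stat2 and Socs1 pass on the left, and on the right 25 of 26 ISGF3 targets lie below 0 and pass.

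Pairs of genes with a shared role were compared within each library, as the difference of their log2 CPM, so that library scaling cancels. There were 4 pairs, tested by exact two-sided permutation over all 24310 assignments of the libraries and adjusted over the 4 pairs. The 4 differences changed between the groups, and each stayed past the threshold in every alternative run. The runs with other library scaling could barely move them, since scaling cancels, and are no check. The pairs were set by role, among genes chosen with earlier results of these data known. The 4 differences describe unequal change and do not show which gene of a pair changed.

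Irf7 minus Irf3 was 2.97 ± 0.2 (SD, n = 9) in untreated livers, from 2.62 to 3.19, and 1.82 ± 0.31 (SD, n = 8) in UCMSC-Exos, from 1.55 to 2.28. The ranges did not overlap. The difference between groups was -1.14 with a 95% interval of -1.41 to -0.87 (exact permutation p = 4.11e-05, the smallest this design can give; adjusted 0.000165). Stat2 minus Irf9 was 1.25 ± 0.34 and 0.9 ± 0.14 (SD), a difference of -0.35 with an interval of -0.63 to -0.08 (exact permutation p = 0.00304; adjusted 0.00406). Untreated HFD 3, at 2.1, was far above the others, and without it the difference was -0.25. Of the 8 UCMSC-Exos libraries, 7 lay under the untreated lowest value of 0.97.

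Ifnar2 minus Ifnar1 was -0.19 ± 0.17 and -0.41 ± 0.12 (SD), a difference of -0.22 with an interval of -0.37 to -0.07 (exact permutation p = 0.00971; adjusted 0.00971). This is the smallest of the 4 shifts, and the ranges of the groups overlapped, with the lowest untreated value at -0.52 and the highest UCMSC-Exos value at -0.31. Irf1 minus Socs1, both induced by interferon-gamma, was 4.11 ± 0.24 and 4.89 ± 0.62 (SD), a difference of 0.78 with an interval of 0.31 to 1.25 (exact permutation p = 0.00037; adjusted 0.00074). Here 7 of 8 UCMSC-Exos libraries lay above the highest untreated value of 4.51. The highest, 6.3, was UCMSC-Exos 8, the library with 16 Socs1 reads, and without it the difference was 0.58.

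**Figure D3:**
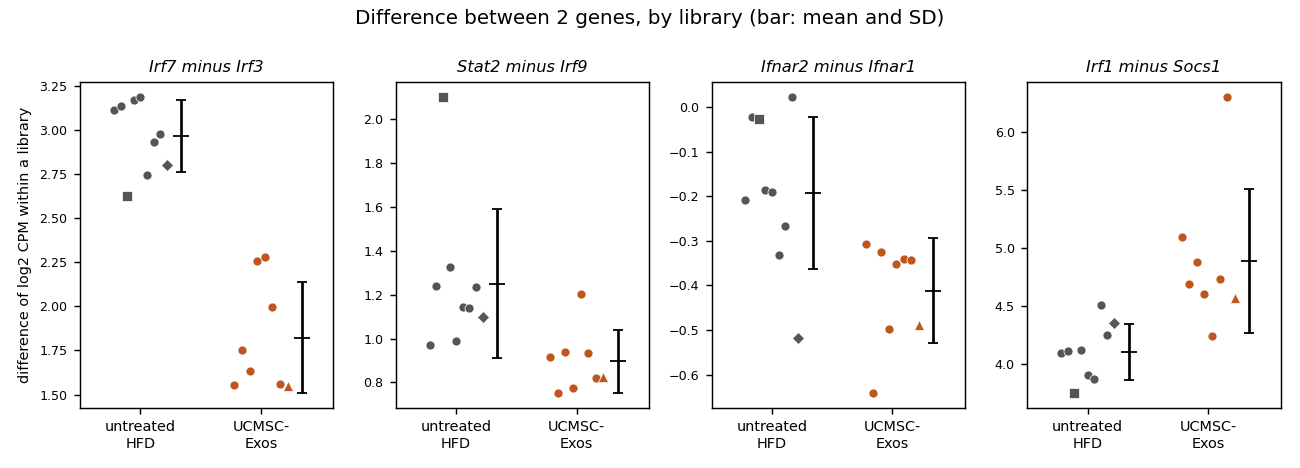
Difference of log2 CPM between the genes of each of 4 pairs within a library (vertical axes, scaled per panel), for untreated HFD (grey) and UCMSC-Exos (orange), with mean and SD; the square is untreated HFD 3, the diamond untreated HFD 9 and the triangle UCMSC-Exos 9. For Irf7 minus Irf3 every UCMSC-Exos library lies under the untreated lowest value of 2.62.

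Levels of different genes were compared per kilobase of exon. In untreated livers Irf7 led with 98 CPM per kb ± 12.3 (SD, n = 9), followed by Stat2 with 28.2 and Ifngr1 with 16.3. Ifnar2, Irf3, Irf9 and Irf1 followed at 13.9, 13.7, 13.1 and 12.4 CPM per kb, then Ifnar1 at 8.89 and Socs1 at 0.973. Neighbours from Ifngr1 to Irf1 in this order had overlapping ranges over the 9 libraries, whereas Irf7 stood apart from Stat2, Stat2 from Ifngr1, Irf1 from Ifnar1 and Ifnar1 from Socs1. In UCMSC-Exos, Irf7 stayed highest at 52.4 CPM per kb ± 15.6 (SD, n = 8), with ranges apart from Stat2 at 20.4. Stat2 then overlapped Ifngr1 at 16.1, which it had not done in untreated livers, but only through UCMSC-Exos 9. That library had Stat2 at 15 and Ifngr1 at 22.5 CPM per kb. In the other UCMSC-Exos libraries the lowest Stat2 was 17.4 and the highest Ifngr1 17.2 CPM per kb. Irf1, at 9.71, overlapped Ifnar1, at 9.18 CPM per kb, and Socs1 stayed last at 0.469.

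The UCMSC-Exos libraries did not deviate alike. Log2 levels are given here as the difference from the untreated mean. UCMSC-Exos 9 had the lowest Irf7 (-1.49), Stat2 (-0.9) and Irf9 (-0.48) of its group, against means of -0.87, -0.43 and -0.09 over the other 7 libraries. In the same library Socs1 was at -0.63 against -1.26, and Ifngr1 was at 0.48 against -0.08. The low Irf1 values of UCMSC-Exos 1, 2 and 3 came with low Socs1, but UCMSC-Exos 8, with the lowest Socs1, had Irf1 at 44.9 CPM. UCMSC-Exos 5 and 6 had the highest Irf7 and Stat2 of their group, with Stat2 at 151 and 171 CPM beside an untreated mean of 167.

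**Figure D4:**
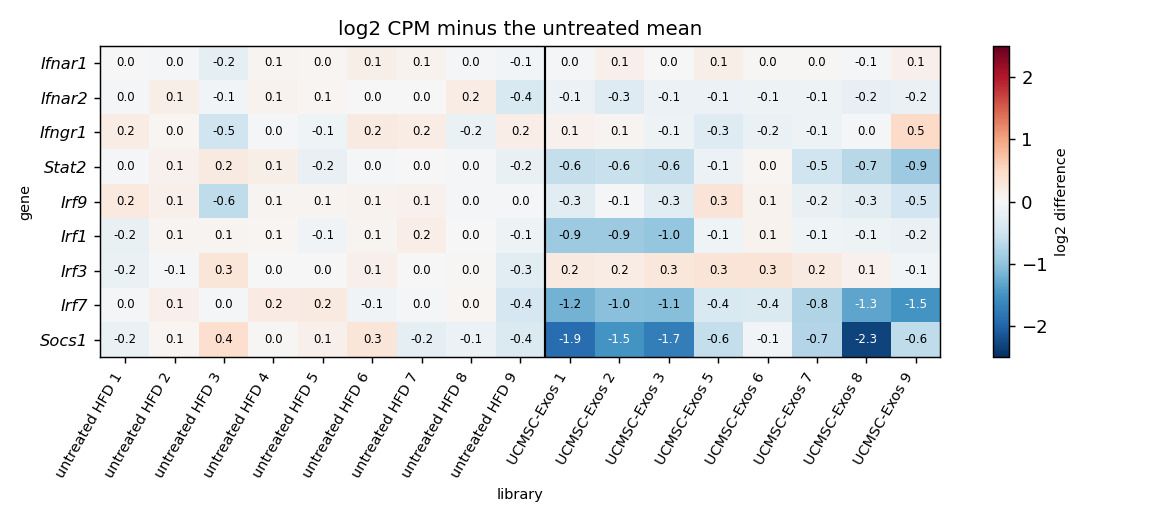
Log2 CPM minus the untreated mean for the 9 genes (rows) in the 17 libraries (columns), in colour from blue (lower) to red (higher) with the value rounded in each cell; a black line parts untreated HFD from UCMSC-Exos. Blue cells gather in the Stat2, Irf7 and Socs1 rows of UCMSC-Exos, and Irf1 is blue mainly in UCMSC-Exos 1, 2 and 3.

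Deviations from the group means were also compared between genes over the 17 libraries, as a description, since genes of a library share its scaling and cell makeup. Over the 36 pairs of the 9 genes Pearson's r had a median of 0.21, with 27 above 0. It ran from -0.77 (Ifngr1 with Irf3) to 0.84 (Stat2 with Irf7). Untreated HFD 3 had the lowest Ifngr1 and highest Irf3 of its group, and UCMSC-Exos 9 the highest Ifngr1 and lowest Irf3. The libraries that stood apart were kept in all these values of r, and r without them was not computed. Among 12594 genes compared, those most like Irf7 were Dhx58, an RNA sensor of the RIG-I family (r = 0.96), and Mov10, an RNA helicase (r = 0.94). Those most like Stat2 were Usp18 and Sec11c, a signal peptidase subunit (both r = 0.88). Those most like Socs1 were Mx1 (r = 0.87) and Oasl2 (r = 0.86), both antiviral interferon-stimulated genes. For Irf1 they were Arrdc3 (r = 0.91) and Lrfn4 (r = 0.89), for Irf3 Pi4k2a and Rnf135 (both r = 0.92), and for Irf9 Derl2 (r = 0.91) and Psmb3 (r = 0.89). For the receptors they were Galns (r = 0.86) and Zfp523 (r = 0.85) with Ifnar1, Slc27a4 (r = 0.91) and Csk (r = 0.83) with Ifnar2, and Myadm (r = 0.96) and Itih5 (r = 0.94) with Ifngr1. Of these, Dhx58, Usp18, Mx1 and Oasl2 passed the group comparison lower, while Sec11c and Derl2 passed it higher (edgeR adjusted p = 0.0267 and 0.0379).

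Transcripts of the interferons themselves were near or below detection. Of 21 interferon genes, 15 had 0 reads in all 17 libraries, which at 3 reads allows up to 0.0705 to 0.103 CPM by library, counting error only. That limit takes reads as independent, and since both mates are counted the true limit is higher. The other 6 never passed 9 reads in a library, and none entered the test. Ifng, the gene for interferon-gamma, had reads in 6 of 9 untreated libraries, 24 in all, and in 7 of 8 UCMSC-Exos libraries, 40 in all. Its mean level was 0.0704 CPM ± 0.0789 (SD, n = 9) in untreated livers and 0.156 CPM ± 0.0856 (SD, n = 8) in UCMSC-Exos. A difference in the 15 genes without reads was therefore not detectable at this depth, and one in the other 6 was not tested.

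Upstream of Irf3 and Irf7, 7 of 17 sensors, adaptors and kinases were lower and 1 was higher, with a median of -0.13. Over all genes tested 10.4% were lower and 9.73% higher, and this list was chosen with earlier results known. Tlr9, the endosomal sensor of unmethylated DNA, fell: untreated livers had 14.3 CPM ± 2.07 (SD, n = 9) and UCMSC-Exos livers 3.85 CPM ± 1.9 (SD, n = 8), a log2 fold change of -1.89 ± 0.21 (SE; edgeR adjusted p = 1.45e-05), with every UCMSC-Exos library under every untreated one. Tlr3, the endosomal sensor of double-stranded RNA, fell, with a log2 fold change of -0.83 ± 0.14 (SE; edgeR adjusted p = 0.000532), and Cgas, the cytosolic DNA sensor, fell with one of -1.07 ± 0.22 (SE; edgeR adjusted p = 0.00345). Tlr7, the sensor of single-stranded RNA, fell with one of -0.49 ± 0.14 (SE; edgeR adjusted p = 0.0218), and lost its call without UCMSC-Exos 3 (edgeR adjusted p = 0.0506). The other 3 lower genes were Myd88, Sting1 and Traf3, which passed in 14, 6 and 8 of the 17 fits that left out 1 library. Ticam1, the adaptor of Tlr3, was the gene that passed higher, with a log2 fold change of 0.36 (edgeR adjusted p = 0.0383), and it passed in 7 of those 17 fits. The kinases Tbk1 and Ikbke, which phosphorylate both factors, had log2 fold changes of -0.16 and 0.07 and did not pass. The count of 7 lower genes depended on single libraries: it was 3 without UCMSC-Exos 3, 4 without UCMSC-Exos 1 or UCMSC-Exos 2, and 2 with surrogate variables.

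Downstream, 25 of 26 ISGF3 targets were lower and 0 higher, with a median of -1.1 and 15 genes whose groups did not overlap. Of all genes tested, 10.4% were lower, and 0.807% had every UCMSC-Exos library under every untreated one. Ifit2, an inhibitor of viral translation, had a log2 fold change of -1.77 ± 0.17 (SE; edgeR adjusted p = 3.56e-06). Oasl2, Oas3 and Oas2, of the oligoadenylate synthetase family, had values of -1.7, -1.78 and -1.19 (edgeR adjusted p = 7.51e-06, 1.12e-05 and 1.34e-05). The 26th gene, Mx2, had a log2 fold change of -0.39 (edgeR adjusted p = 0.118) and passed only without UCMSC-Exos 6 among the fits that left out 1 library (edgeR adjusted p = 0.0443). Interferon-stimulated genes were already known to be lower in these samples, so this count adds no independent support. Of 17 tested interferon-gamma targets, 12 were lower and 0 higher, with a median of -0.63, beside 10.4% lower over all genes tested. This list too was chosen with earlier results known, so its count adds no independent support. Gbp3, a guanylate-binding GTPase, changed by -0.94, Tap1, the peptide transporter of class I presentation, by -0.69, Tgtp2, an immunity-related GTPase, by -1.53, and Ciita, the class II transactivator, by -0.88 (edgeR adjusted p = 0.000915, 0.00141, 0.00153 and 0.00169). The other 5 did not pass: Cxcl9, with a log2 fold change of 0.38, Gbp2 with -0.38, Irgm1 with -0.34, Iigp1 with -0.03 and Tgtp1 with -0.78. Over the 17 fits that left out 1 library, 9 to 14 of these targets were lower. Among those called, Igtp passed in 3 of the 17, Psmb9 in 4 and Cxcl10 in 13. Among those not called, Irgm1 passed in 1 and Tgtp1 in 2. Tgtp1 and Tgtp2 are near-identical copies, so the split of reads between them is uncertain.

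The ISRE core letters stood before the start of 2 of the 9 genes and 8 of 20 ISGF3 targets found in the RefSeq table. Both of these 2 genes, Stat2 and Socs1, passed lower, and Irf7, with the letters in no window, did too. The GAS letters stood before Irf1 and Ifnar2, neither of which passed, and before 5 of 13 interferon-gamma targets, of which 8 held the ISRE core. Of 20 interferon genes in the table, 11 held the ISRE core and 8 the GAS. Counted by gene, 3.46% of 27025 symbols held the ISRE core and 8.13% the GAS.

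Some markers of several cell types also differed between the groups, and many others did not pass. Over all genes tested 20.2% passed. Of 5 tested neutrophil markers none passed, and of 6 sinusoidal endothelial markers 1 was higher, Stab2. Of 6 monocyte and macrophage markers 2 were lower, Ccr2 with a log2 fold change of -1.12 and Ly6c2 with -1.07. The other 4 had values from -1.09 (Cx3cr1) to -0.2 (Cd68) and did not pass. The summed level of the 6 ran from 353 to 546 CPM in untreated libraries. It was 243 to 427 CPM in UCMSC-Exos libraries other than UCMSC-Exos 9, at 748. UCMSC-Exos 9 was also the library of lowest Irf7 and Stat2. UCMSC-Exos 6, at 427 CPM, had the highest Irf7 and Stat2 of its group. Of 6 Kupffer cell markers 2 were higher, Marco and Timd4, with sums of 251 to 1440 and 553 to 1400 CPM. Of 7 hepatocyte markers 6 were higher and 1 lower, with sums of 32700 to 52200 and 38500 to 70900 CPM. None of 5 cholangiocyte markers passed. Their sums were 117 to 513 CPM in untreated libraries and 48.2 to 126 CPM in UCMSC-Exos libraries other than UCMSC-Exos 9, at 577. Of 6 stellate cell markers 2 were lower, Dcn and Des, with sums of 678 to 1930 and 437 to 1750 CPM. The UCMSC-Exos high was again UCMSC-Exos 9. The other UCMSC-Exos libraries had 437 to 631 CPM, under every untreated library. Des rested on untreated HFD 9, which had 681 CPM against at most 14.4 in any other library. Of 6 tested B and plasma cell markers 2 were higher, Igkc and Jchain, with sums of 7.58 to 16.7 and 35.2 to 75.3 CPM. Of 3 tested markers of plasmacytoid dendritic cells, a cell type rich in Irf7, none passed, and Siglech had a log2 fold change of 0.02. The other 2 markers of that list were not tested: Cox6a2 had 166 CPM in untreated HFD 9 and Klk1 65 CPM in untreated HFD 3, against at most 0.512 and 0.4 CPM elsewhere, so the summed level of 1.42 to 168 CPM in untreated livers and 1.27 to 3.15 CPM in UCMSC-Exos does not measure these cells. Of 8 T and NK cell markers 1 was higher, Cd4 with a log2 fold change of 1.62 (edgeR adjusted p = 7.39e-05), with sums of 13.8 to 20.7 and 15.6 to 35.3 CPM. None of the 8 mitochondrially encoded transcripts passed, but their sum was 37400 to 42600 CPM in UCMSC-Exos libraries other than UCMSC-Exos 9, at 23500, and at most 34000 CPM in untreated libraries other than untreated HFD 9. The part of these cell types and of mitochondrial RNA in the results for Irf7, Stat2 and Socs1 was not tested.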

How the data were processed

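The source was a single deposited table with a count of liver RNA-seq reads for each gene. The submitters' processing notes name HISAT2 2.2.1, Subread 2.0.2, featureCounts and fastp 1.3.3, with the build mm10. Per the file headers, the counts were made by the authors with featureCounts 2.1.1 over exons of GENCODE vM25 in paired mode, with no strand option; the sources give different versions. Both mates are counted, so counts are of reads, and they were not normalized by the authors. Exonic lengths are the authors' values in the same deposited table.

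IDs of 55141 of 55401 genes matched a symbol, 213 of which shared it with another gene and kept their ID. Columns were matched by the library names in the labels; 1 per-sample column had no sample and was left out. No label gives a cage, date or batch. Counts were fitted in R 4.3.3 with edgeR 4.0.16 (filterByExpr with its minimum count of 10, TMM, robust quasi-likelihood F test, two-sided, Benjamini-Hochberg over all genes, threshold 0.05). A prior count of 2 was used for log2 CPM. The 4 pair differences used exact permutation, with intervals from the pooled SD. The members and lists were chosen with earlier results of these data known. Genes named are the 9 members, in each list up to 4 of smallest p that passed (2 of highest level where none did; some of these are not reported here), and for each member the 2 genes of at least 1 CPM with the most similar deviations; other names in the text were chosen after their values were seen.

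The fit was repeated with upper quartile and RLE scaling, without a filter, with at least 1 CPM in 8 libraries, with the replicate block, with surrogate variables (sva 3.50.0), by DESeq2 1.42.0, by limma 3.58.1 voom with quality weights, and without single libraries. On simulated counts for 15993 genes of the same comparison, log2 changes of 0.5, 1 and 2 were recovered for 35.4%, 78.8% and 97% of 65, 66 and 66 changed genes, and 8 of 147 calls were false. Far fewer genes changed there than the 20.2% called in the data, and no library stood apart. These shares therefore do not carry over to the data. The closest pair of libraries, UCMSC-Exos 2 and 3, differed by a median chi-square of 3.98 times sampling noise, so none was counted as a duplicate. That noise takes reads as independent, although both mates are counted.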

Additional observations from a re-analysis of the deposited data

Results flagged for a closer look

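Of 18 gene and group combinations checked for a single library far from the others, 4 met Dixon's 95% limit, a limit that chance alone passes in about 1 of 20 groups. Ifnar2 had 35.3 CPM in untreated HFD 9, where the gap to the nearest library was 0.522 of the group's range. Ifnar2 also had 36.8 CPM in UCMSC-Exos 2, with a gap of 0.627 of the range. Irf9 had 45 CPM in untreated HFD 3, with a gap of 0.619. Ifngr1 had 63.9 CPM in UCMSC-Exos 9, with a gap of 0.548.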

How the results depend on the processing

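Over 27 alternatives Irf7 (-1.27 to -0.84 on the log2 scale) and Stat2 (-0.63 to -0.41) stayed lower and past the threshold, and Socs1 stayed lower. Socs1 (-1.37 to -0.93) lost its call with surrogate variables. Of 243 values for the 9 genes, 224 kept their direction and side of the threshold, 1 lost its call, 17 gained one and 1 moved by more than its error: Ifngr1, at 0.18 with surrogate variables (edgeR adjusted p = 0.064). The gains were of Ifnar2, Irf1 and Irf9 lower and Irf3 higher; Irf9 gained one with surrogate variables (-0.37) and with limma voom (-0.21). For the other pathway genes 114 of 2482 values lost a call and 0 reversed.

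Of all genes, 1062 were lower with no filter; 421 were higher and 545 lower with surrogate variables; 3577 and 4134 with limma voom; and 3148 and 3568 without the 3 libraries that stood apart. Leaving out each library gave 1078 to 2456 higher and 927 to 3367 lower, the low ends without UCMSC-Exos 3 and the high ends without UCMSC-Exos 9. Of the 9 genes, 1 (Irf3) was higher with DESeq2, with limma voom, without untreated HFD 3 and 9 and without the 3 libraries, and 0 to 1 when 1 library was left out; limma voom gave 6 lower, and leaving out 1 library 3 to 4. Left-out libraries gave pair differences of -1.21 to -1.1, -0.4 to -0.25, -0.26 to -0.19 and 0.58 to 0.87, in the order of the report. The cause of these shifts was not tested.

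Replicate numbers did not pair the libraries: over 8 shared numbers, deviations correlated from -0.22 to 0.33, 3 over 0.1, and 1 library matched its own number best. With the number as a replicate block, 1321 genes were higher and 1708 lower, and no call of the 9 genes changed (Irf7 -0.92, Stat2 -0.48, Socs1 -1.19). Depth limits Socs1 and the interferon genes most.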
